A study of Mus musculus with 12 samples.

Results

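Stimulation of mouse CD8+ T cells through the T cell receptor complex was examined in the absence of added interferon, on 6 of the 12 arrays of the series: 3 labelled anti-CD3 and 3 labelled PBS. The arrays were chosen by their labels, and a gene's change is the mean of the 3 anti-CD3 arrays minus the mean of the 3 PBS arrays, on rows that name 1 gene symbol (22180 genes). Per the labels, CD8+ lymphocytes were taken from the spleens of C57BL/6 mice by negative sorting with a CD8a+ T Cell Isolation Kit II and kept for 6 h at 37 °C. The anti-CD3 group received an antibody against CD3, the PBS group phosphate-buffered saline as mock treatment, and neither group received IFN-4a, the interferon of the series. The other 6 arrays are anti-CD3 with IFN-4a and PBS with IFN-4a (3 each). They do not enter the change itself. They do enter the row medians and, through a fit of all 12 arrays, the spread behind each standard error and p-value. They also serve to ask whether the anti-CD3 change was the same size with IFN-4a present, and to give the change from PBS to PBS with IFN-4a. The labels name no antibody clone, dose or mouse age, no co-stimulus, and no animal, culture or day behind a replicate number. The p-values therefore cover only the spread among these arrays, and that spread could be a technical one.

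The T cell receptor recognises peptide on major histocompatibility complex (MHC) molecules but signals through the associated CD3 chains, so an antibody against CD3 bypasses antigen. CD3 signalling activates calcium, MAP kinase and NF-kappaB pathways, which first switch on genes for transcription factors and cytokines and then a growth programme that precedes division. A resting CD8+ T cell is held small and quiescent by transcription factors and cell cycle inhibitors, and it recirculates through lymphoid tissue with receptors that are withdrawn on activation.

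The deposited values were read as log2 and had been centred by the authors on each row's median over the 12 arrays. A value of 0 is therefore that row's own median, no absolute level can be read, and levels cannot be compared between genes. No source used here gives the base of the log, and every fold below rests on base 2. Array medians lay between -0.0157 and 0.0165. Over all 33793 rows, arrays of 1 group correlated at 0.636 to 0.801 and arrays of different groups at -0.442 to -0.244. Centring on the row median by itself favours negative values between groups. On the same rows, principal component 1 of the 6 arrays carried 76.3% of their variance. Defining CD8+ T cell genes checked the label: all 8 listed markers, Cd8a, Cd8b1, Cd2, Cd3d, Cd3e, Cd3g, Cd5 and Thy1, were on rows that the decimal steps of the values place at a level of 8 or above before centring. By the same reading none of 13 B cell, 21 monocyte, macrophage and dendritic cell or 13 granulocyte markers reached that level, against 2 of 11 NK cell and 4 of 9 CD4 and regulatory T cell markers. This level is inferred and not measured, since a dim row passes by coincidence about once in 64.

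Anti-CD3 changed 7048 of the 22180 genes tested, or 31.8% (limma, Benjamini-Hochberg adjusted p under 0.05). Of these, 3052 genes (13.8%) were higher and 3996 (18.0%) lower in anti-CD3 cells. Each list below is to be read beside those shares. The lists were chosen with earlier results of these data known, so an excess over the shares is a description only. More genes fell than rose, although with quantile normalization the counts were nearly equal, at 3202 higher and 3250 lower. The median change was 0.50 among genes that rose and -0.39 among those that fell, against -0.04 over all genes. At least 2-fold changes numbered 563 upward and 140 downward, and at least 4-fold changes 112 upward and 1 downward. With quantile normalization the 2-fold counts were 428 and 271. It was applied to the centred values of all 12 arrays, IFN-4a arrays included, and gives each array the same distribution. All 31 genes changed at least 8-fold were higher. The 3 and 3 arrays did not overlap for 9130 genes (41.2%), which included 6913 of the called genes. Of 6315 genes with a row at the inferred level of 8 or above, 70.0% were called, against 16.6% of the other 15865. At that level 34.4% were called higher and 35.6% lower. That level was read on a row's 6 highest of 12 arrays, so a gene could reach it through the group in which it was high, and this split is a description only. Directions and sizes are given beside each list's count. In bulk RNA, fewer cells of a type and less RNA per cell cannot be told apart.

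**Figure D1:**
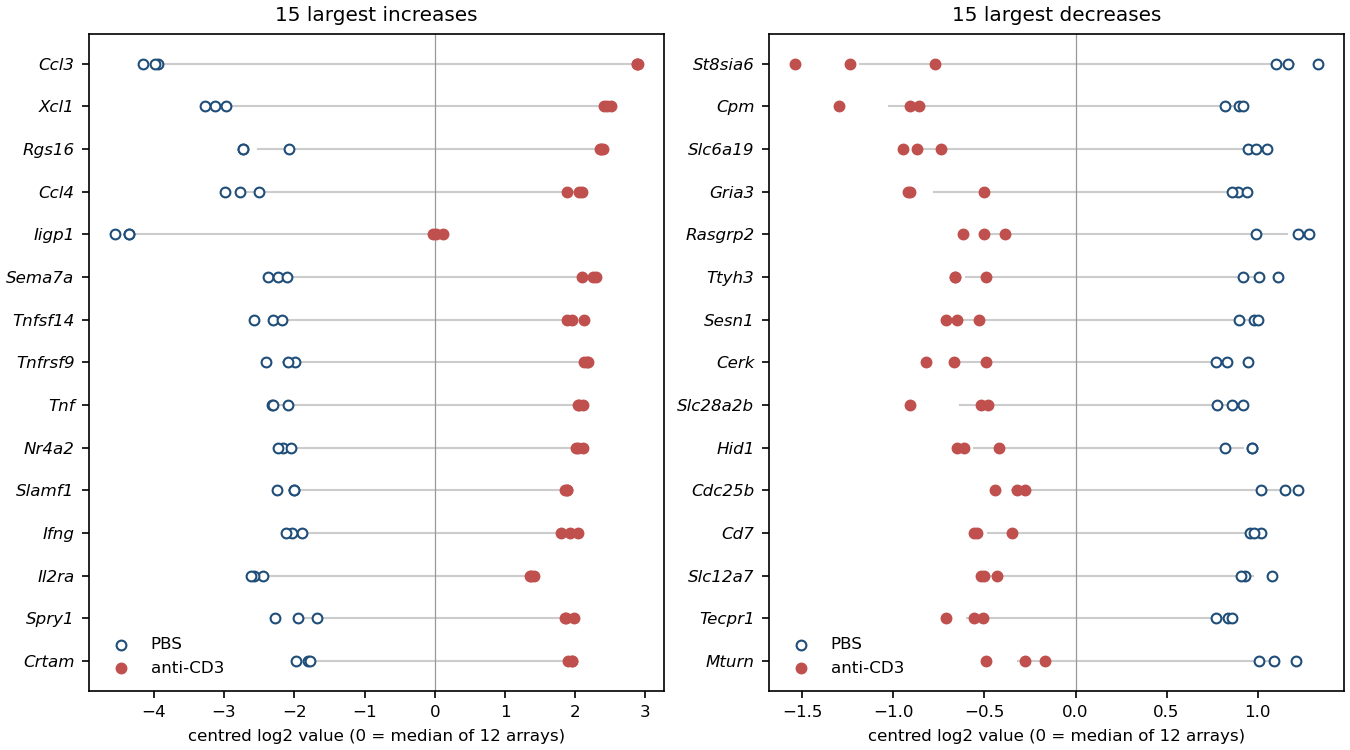
Centred log2 values of the 15 genes with the largest rise and the 15 with the largest fall, 1 point per array for 3 PBS and 3 anti-CD3 arrays, where 0 is the gene's median over 12 arrays. The groups do not overlap for any of the 30 genes, since the choice required it; the rises span 3.78 (Crtam) to 6.91 (Ccl3) and the falls -1.42 (Mturn) to -2.38 (St8sia6).

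Many transcription factor genes known to switch on early after receptor engagement were higher in the 3 anti-CD3 arrays. With 6 h as the only time, no order of induction can be read. Of 28 measured immediate early genes 18 rose, 14 of them at least 2-fold, and none fell (median change 1.02). The Nr4a genes encode orphan nuclear receptors that report receptor signal strength, and Nr4a2 (Entrez 18227) stood at -2.16, -2.05 and -2.23 on the PBS arrays and at 2.11, 2.01 and 2.04 on the anti-CD3 arrays. That is a change of 4.20 ± 0.09 (standard error), or 18.4-fold (limma adjusted p = 8.03e-13). The groups lay far apart, and the arrays of each group lay close together. Nr4a3 rose by 3.54 ± 0.12 and Nr4a1 by 3.44 ± 0.10. Egr2 and Egr3, zinc finger factors induced through calcium and MAP kinase signals, rose by 3.24 ± 0.06 and 3.0 ± 0.07, and Egr1 by 2.90 ± 0.06. Irf4, a factor needed for the expansion of CD8+ T cells, rose by 3.44 ± 0.10 and Irf8 by 2.13 ± 0.06, a mean of 2 rows that disagreed in size (3.61 and 0.65). Fos and Jun, the partners of AP-1, changed less (1.46 ± 0.08 and 1.37 ± 0.10). Among members that did not pass the test were Junb (0.17 ± 0.08, adjusted p = 0.139) and Batf (-0.05 ± 0.07, adjusted p = 0.651), AP-1 family genes like Fos and Jun.

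Among 16 NF-kappaB genes, 10 rose and 4 fell. The largest rises were in Nfkbid, an atypical inhibitor that binds NF-kappaB in the nucleus, at 2.08 ± 0.06, and in Rel, the c-Rel subunit, at 1.71 ± 0.06. Rel stood between -1.18 and -1.08 on the PBS arrays and between 0.57 and 0.62 on the anti-CD3 arrays. The classical feedback inhibitors did not move with them at 6 h: Nfkbia, which encodes I-kappaB alpha, fell by 0.24 on the log2 scale (standard error 0.06), and Tnfaip3, which encodes A20, differed by -0.06 ± 0.05 (adjusted p = 0.466).

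Chemokine genes held the 2 largest changes of the whole comparison, Ccl3 and Xcl1. Ccl3 (Entrez 20302), an inflammatory chemokine gene, stood at -3.94, -4.15 and -3.98 with PBS and at 2.88, 2.89 and 2.88 with anti-CD3. It rose by 6.91 ± 0.22, or 120-fold (95% confidence interval of the log2 change 6.44 to 7.38, limma adjusted p = 2.67e-11). Its neighbour in function Ccl4 rose 27.1-fold, from between -2.98 and -2.50 to between 1.88 and 2.09. Xcl1, which attracts cross-presenting dendritic cells through XCR1, rose 48.0-fold, from between -3.27 and -2.97 to between 2.41 and 2.51. All 3 genes were uniform within each group. Cxcl10 rose 10.5-fold and Ccl9 6.02-fold, Ccl1 rose less (0.73), and 8 of the 16 measured chemokine genes did not pass the test, Ccl22 (0.10) and Cxcl16 (0.18) among them. The exception in direction was Ccl5, the chemokine that memory CD8+ T cells hold ready as RNA. It stood at 0.38, 0.48 and 0.40 with PBS and at -0.50, -0.36 and -0.44 with anti-CD3, a fall of 0.86 on the log2 scale (standard error 0.07, adjusted p = 6.31e-07).

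Of 27 cytokine genes 18 rose, 10 at least 2-fold, and 2 fell. Ifng (Entrez 15978), the main effector cytokine of CD8+ T cells, stood at -1.89, -2.03 and -2.12 with PBS and at 1.80, 1.92 and 2.04 with anti-CD3, a 15.2-fold rise (3.93 ± 0.09, limma adjusted p = 1.85e-12). Tnf rose 19.8-fold and Tnfsf14, which encodes the costimulatory ligand LIGHT, 20.2-fold. Their PBS and anti-CD3 arrays lay as far apart. Lta and Tnfsf8, further TNF family ligands, rose by 2.79 ± 0.10 and 2.62. Il2, the T cell growth factor, rose by 2.28 ± 0.14, from between -1.19 and -1.0 to between 1.0 and 1.37. Il3 rose by 1.41 ± 0.08, and Csf2 rose by 0.28 ± 0.06, with its 2 rows at 0.01 and 0.55. Genes of cytokines typical of helper cells were divided: Il17a (0.81) and Il4 (0.45) rose, while Il5 (-0.06), Il22 (-0.01), Il10 (0.04) and Il13 (0.15) did not pass the test. The 2 that fell were Il16 (-0.60 ± 0.08) and Ltb (-0.36 ± 0.05).

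Genes for receptors of recently activated cells rose. Among 27 activation and costimulatory receptors 17 rose, 11 at least 2-fold, and 3 fell. Sema7a, a membrane-anchored semaphorin of activated T cells, rose 21.9-fold. Tnfrsf9, which encodes the costimulatory receptor 4-1BB, stood at -1.99, -2.09 and -2.40 with PBS and at 2.17, 2.12 and 2.18 with anti-CD3, a 19.9-fold rise (4.32 ± 0.10, adjusted p = 1.23e-12). Il2ra, the high-affinity chain of the IL-2 receptor, stood at -2.44, -2.58 and -2.61 against 1.36, 1.37 and 1.41, a 15.2-fold rise (3.93 ± 0.13). These 3 were among the 15 largest rises, whose choice required groups that do not overlap. The adhesion receptor genes Slamf1, Slamf7 and Crtam rose by 3.96, 3.66 and 3.78, and Cd69, the classical early activation marker, by 2.02 ± 0.09 (4.04-fold). Tfrc, the transferrin receptor through which dividing cells take up iron, rose by 2.34. Several receptors often named with these did not pass the test, including Cd28 (0.03), Cd2 (-0.05), Tnfrsf4, which encodes OX40 (0.15), and Cd70 (-0.02). Cd7, an immunoglobulin family receptor of resting T cells, fell from between 0.96 and 1.02 to between -0.56 and -0.35 (-1.47 ± 0.08), and Cd226, an adhesion receptor of the nectin family pathway, fell by 0.96 on the log2 scale.

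Genes of inhibitory receptors rose within the same 6 h. Of 19 coinhibitory receptors and ligands 10 rose, 9 at least 2-fold, and 2 fell. Pdcd1, which encodes PD-1, stood at -1.22, -1.05 and -1.24 with PBS and at 1.26, 1.41 and 1.28 with anti-CD3 (5.60-fold, adjusted p = 5.49e-10). Its ligand gene Cd274 rose 9.64-fold, from between -2.91 and -2.72 to between 0.39 and 0.55, and Cd160 12.3-fold. Receptor and ligand of this pathway were thus both higher in the stimulated cells. Btla rose by 1.72 ± 0.08, Tigit by 1.36 ± 0.14, Havcr2 by 1.18 ± 0.11 and Lag3 by 0.95 ± 0.11. Ctla4, which encodes another inhibitory receptor of the CD28 family, went the other way, at 0.63, 0.57 and 0.40 with PBS against -0.31, -0.19 and -0.27 with anti-CD3 (-0.79 ± 0.10, adjusted p = 3.33e-05). Entpd1 (0.02) and Lgals9 (0.01 ± 0.07, adjusted p = 0.950) did not pass the test. With quantile normalization Lgals9 was called lower (-0.30, adjusted p = 0.00135).

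Cytotoxic genes changed in part. Among 21 cytotoxic effector genes 8 rose and 2 fell. Granzyme B enters target cells through pores of perforin, and its gene Gzmb was scattered over the stimulated arrays, at 1.14, 0.52 and 0.29 against -1.45, -1.96 and -1.77 with PBS (2.37 ± 0.24, 5.19-fold, adjusted p = 2.4e-06). The groups still did not overlap. Prf1, the perforin gene, stood at -0.84, -0.72 and -0.61 against 0.76, 0.76 and 0.79 (2.82-fold). Serpinb9 and Serpinb6b, which encode intracellular protease inhibitors of the granzyme B inhibitor family, rose by 1.79 ± 0.13 and 1.90 ± 0.11. Granzyme A was not among these: Gzma stood at -1.12, -1.15 and -0.90 against -0.77, -1.22 and -0.76, groups that overlapped (0.14 ± 0.20, adjusted p = 0.679). Klrd1, which encodes the CD94 chain of NK-type receptors, fell by 1.06 on the log2 scale.

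Of 24 effector and memory transcription factors, 19 of them at the inferred level of 8 or above, 10 rose and 9 fell. That is 79.2% of all 24, against 70.0% of all genes at that level, a set that not every list member belongs to. Tbx21, which encodes the effector factor T-bet, rose 4.22-fold, from between -1.54 and -1.11 to between 0.76 and 0.93. Eomes, its relative in memory and killer cells, rose 3.01-fold, and Bcl6, a repressor tied to memory cells, 2.64-fold. Prdm1, the gene of the terminal effector factor Blimp-1, did not pass the test (-0.08). The falls were small and ran from -0.32 (Id2 and Tox) to -0.58 (Rora). Cytokine receptors moved mostly downward: 11 of 21 fell and 5 rose, with 17 of the 21 at the inferred level of 8 or above. The receptor genes that rose were those for IL-12 (Il12rb1, 2.38 ± 0.05, and Il12rb2, 1.53 ± 0.15), IL-15 (Il15ra, 2.05 ± 0.11), IL-21 (Il21r, 0.98) and IL-4 (Il4ra, 0.29). Il7r, whose product keeps resting T cells alive, fell from between 0.31 and 0.33 to between -0.51 and -0.33 (-0.74 ± 0.07). Both chains of the interferon gamma receptor fell, Ifngr1 by 0.60 and Ifngr2 by 0.97 on the log2 scale, and so did those of the type I interferon receptor, Ifnar1 (-0.64) and Ifnar2 (-0.28). Il2rb and Il6st stayed near 0 (0.02 and -0.01) and did not pass the test.

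**Figure D2:**
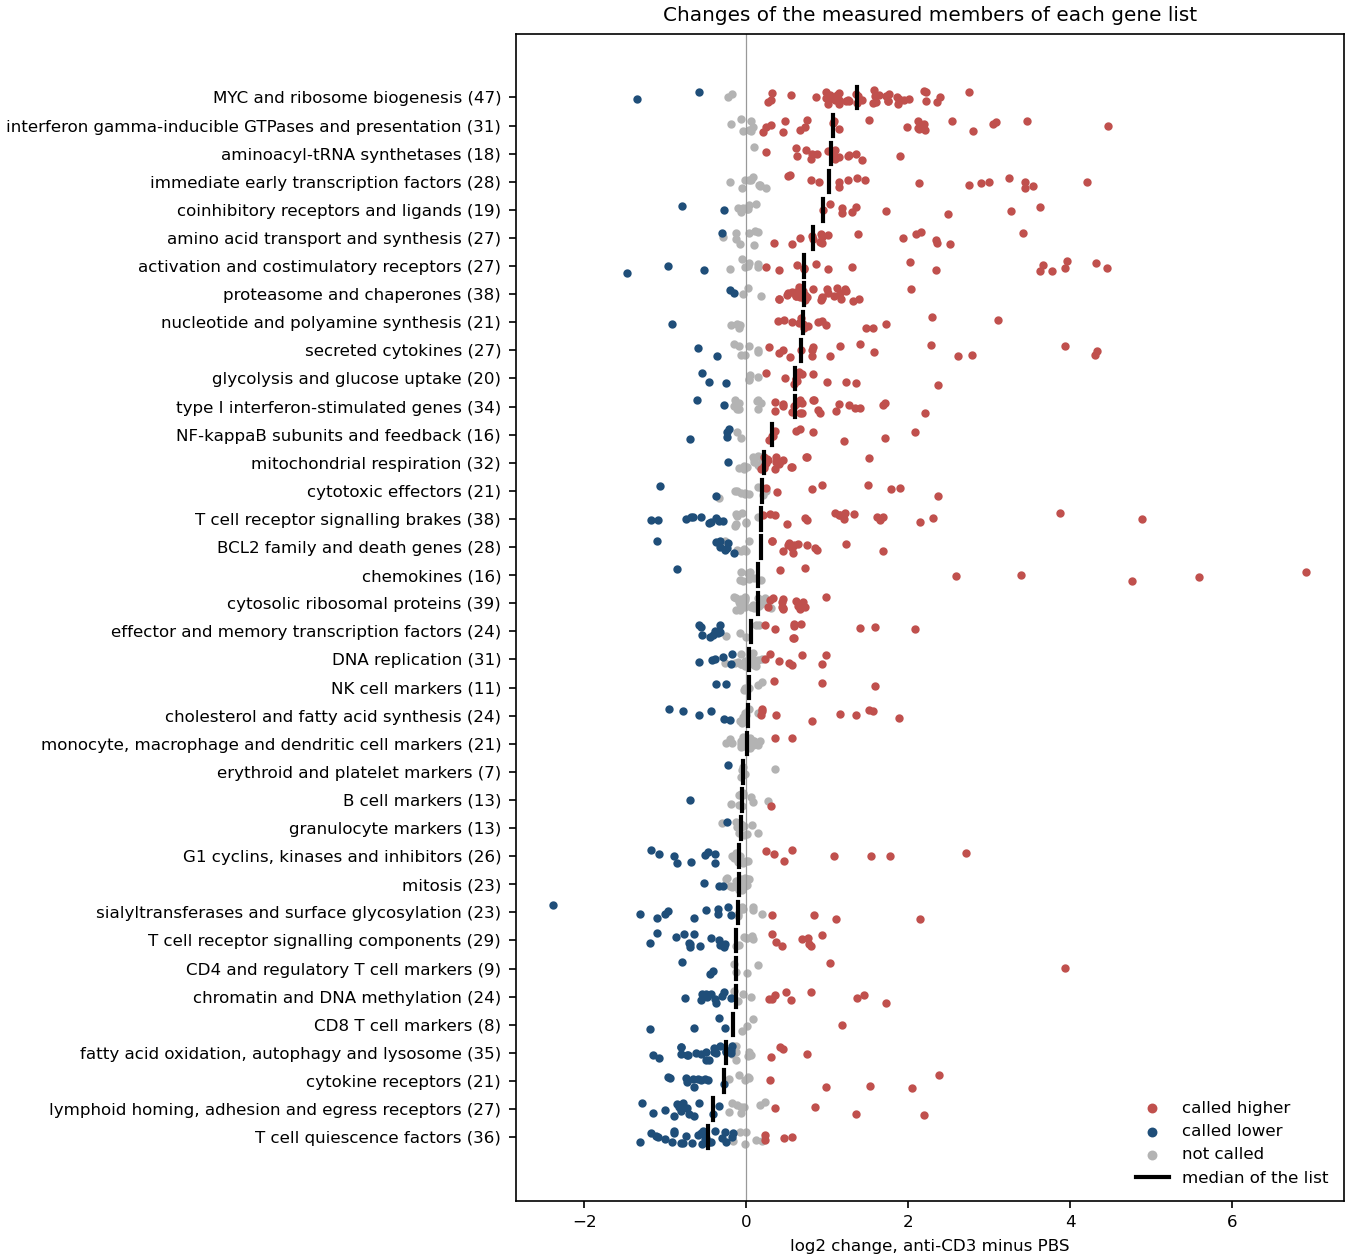
Log2 change, anti-CD3 minus PBS, of every measured member of each gene list, 1 point per gene, with a bar at the list's median. The MYC and ribosome biogenesis list lies furthest to the right (median 1.37) and the quiescence list furthest to the left (median -0.47).

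Growth genes rose together. Myc, the factor that drives growth of activated T cells, stood at -1.42, -1.52 and -1.29 with PBS and at 1.38, 1.41 and 1.22 with anti-CD3, a 6.71-fold rise (2.75 ± 0.08, limma adjusted p = 1.31e-11). Of 47 measured genes of MYC and ribosome biogenesis 43 rose, 36 at least 2-fold, and 2 fell (median 1.37), where 45 of the 47 have a row at the inferred level of 8 or above. Rrp1b and Gnl3, which encode nucleolar proteins, rose by 2.39 ± 0.05 and 2.35 ± 0.08, and Polr1b, a subunit of the RNA polymerase that makes ribosomal RNA, by 2.22. Nop2, which encodes a methyltransferase of ribosomal RNA, rose 4.64-fold, from between -1.08 and -1.04 to between 1.10 and 1.20. The 2 genes that fell encode proteins that oppose MYC at its partner MAX: Mxd4 went from 0.87, 0.92 and 0.97 to -0.52, -0.42 and -0.35 (-1.35 ± 0.07), and Mxi1 fell by 0.58 on the log2 scale. The ribosomal proteins themselves changed far less, with 14 of 39 higher, none lower, none at least 2-fold and a median of 0.14. The largest was Rplp2 (0.99 ± 0.11), and the 2 rows of Rps20 disagreed (0.03 and 1.42).

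MYC binds the E-box CACGTG, and it is shown in 2 promoters of genes that rose. RefSeq promoter windows (GRCm38.p6, 250 bases before to 50 after a start site, both strands searched) were matched for 16990 of the genes tested, with 20611 promoters. The E-box was present in 8.07% of all these promoters, in 95 of 521 promoters (18.2%) of genes at least 2-fold higher, in 9.68% of those at least 2-fold lower, and in 10 of 53 (18.9%) of the MYC and ribosome biogenesis list. The AP-1 motif TGANTCA was in 6.14% of the promoters of genes at least 2-fold higher against 7.26% of all, the cyclic AMP response motif TGACGTCA in 3.07% against 2.32%, and the kappaB motif GGANTTTCC in 1.15% against 1.35%. A match describes the letters in this window and is not a measured binding site. The windows of Nop2 (chr6:125131763-125131882, + strand) and of the chaperone gene Hspd1 (chr1:55088259-55088378, - strand) are printed from 5′ to 3′ along the gene, with the E-box in capitals. It begins 60 bases before the start site of Nop2 and 80 before that of Hspd1.
Nop2: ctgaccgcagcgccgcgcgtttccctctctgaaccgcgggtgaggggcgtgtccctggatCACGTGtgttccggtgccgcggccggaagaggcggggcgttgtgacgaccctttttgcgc
Hspd1: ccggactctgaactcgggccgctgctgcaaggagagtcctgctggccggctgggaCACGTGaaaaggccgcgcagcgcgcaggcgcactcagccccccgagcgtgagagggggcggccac

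Genes that supply building blocks for growth rose as well. Of 18 aminoacyl-tRNA synthetase genes, whose products charge tRNA with amino acids, 17 rose and none fell (median 1.05), led by Wars (1.90 ± 0.05) and Iars (1.43 ± 0.06). Only Qars did not pass the test (0.10). Among 27 genes of amino acid transport and synthesis 18 rose and 1 fell (Slc43a1, -0.30, not called without PBS replicate 2, PBS replicate 3 or anti-CD3 replicate 3). Shmt1, a serine hydroxymethyltransferase that feeds one-carbon units, stood between -1.88 and -1.74 with PBS and between 1.59 and 1.65 with anti-CD3 (10.7-fold). Mthfd1, of the same folate pathway, rose 5.10-fold, Psat1, of serine synthesis, 5.06-fold, and the leucine transporter gene Slc7a5 5.71-fold. Slc7a11, the cystine transporter gene, did not pass the test (0.03). In nucleotide and polyamine synthesis 16 of 21 genes rose and 1 fell. Srm, which encodes spermidine synthase, rose 8.65-fold, and Ctps, CTP synthase, 4.88-fold, whereas its paralogue Ctps2 was the member that fell (-0.91). The S-phase genes of that list, Rrm2 (-0.11) and Tyms (-0.19), did not pass the test.

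Glycolysis and glucose uptake held 13 rises and 3 falls among 20 genes. Hk2, the hexokinase of growing cells, went from -1.25, -1.11 and -1.08 to 1.18, 1.27 and 1.21 (5.16-fold), Pfkfb3 rose by 1.36 and the lactate transporter gene Slc16a1 by 1.23. The enzymes further down rose less, Tpi1 by 1.0, Ldha by 0.63 and Gapdh by 0.65. The glucose transporter gene Slc2a3 fell by 0.54 on the log2 scale. Slc2a1 rose by 0.24 over the mean of its rows and was at -0.00 (adjusted p = 0.987) on its highest-mean row. Respiration changed little in size: 19 of 32 genes rose and 1 fell, with a median of 0.22, and Cycs, which encodes cytochrome c, was the only one past 2-fold (1.52 ± 0.12, its 5 rows ranging from 0.91 to 2.0). In cholesterol and fatty acid synthesis 10 of 24 rose and 6 fell. Cyp51, Fasn and Sqle, enzymes of sterol or fatty acid synthesis, rose by 1.89, 1.56 and 1.51, while Abcg1 and Abca1, which export cholesterol from cells, fell by 0.95 and 0.78 on the log2 scale. Proteasome and chaperone genes rose as a block, 33 of 38 with a median of 0.71. Herpud1 and Dnajb1 were called lower (-0.20 and -0.15), and neither call remained without PBS replicate 3, without anti-CD3 replicate 1 or without anti-CD3 replicate 3. Dnajb1 was also not called with the replicate block (adjusted p = 0.0506). Hspd1, the mitochondrial chaperonin whose promoter is printed above, went from between -1.08 and -0.95 to between 0.97 and 1.07 (4.09-fold).

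Genes of cell division did not rise. Of 23 mitosis genes none rose and 3 fell (Kif23, Birc5 and Nusap1, by 0.52, 0.34 and 0.29 on the log2 scale), and Mki67 (-0.24), Top2a (-0.02) and Cdk1 (0.01) did not pass the test. Only 1 of these falls was called with quantile normalization and without PBS replicate 1, PBS replicate 3 or anti-CD3 replicate 1. None of the 23 had a row at the inferred level of 8 or above. DNA replication genes split, with 8 of 31 higher, 6 lower and none past 2-fold, from Lig1 (-0.58 ± 0.07) to Pold2 (0.98 ± 0.06). Changes were larger among the G1 regulators, where 8 of 26 rose and 9 fell. Ccnd2, the cyclin D2 gene, went from -1.71, -1.57 and -1.63 to 0.09, 0.15 and 0.17 (3.42-fold), and its kinase partners Cdk6 and Cdk4 rose by 1.54 ± 0.09 and 1.08. The cyclin-dependent kinase inhibitors moved both ways. Cdkn1a, which encodes p21, rose 6.53-fold, while Cdkn1b, which encodes p27 and holds resting T cells out of cycle, went from 0.64, 0.64 and 0.59 to -0.65, -0.49 and -0.51 (-1.17 ± 0.08, adjusted p = 7.59e-08). Cyclin D3 (Ccnd3, -0.68) and cyclin G2 (Ccng2, -1.07 ± 0.09), the latter linked to cell cycle exit, also fell.

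**Figure D3:**
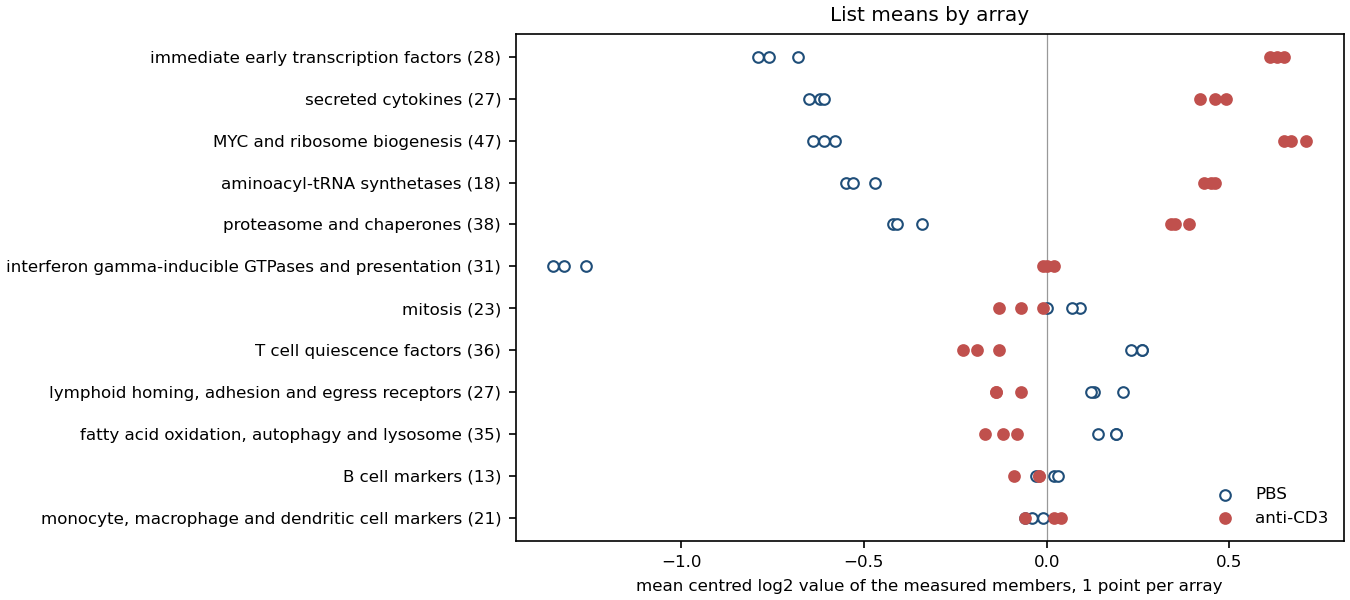
Mean centred log2 value of the measured members of selected lists, 1 point per array for 3 PBS (open) and 3 anti-CD3 (filled) arrays, with the number of members in brackets. The immediate early list lies between -0.79 and -0.68 with PBS and between 0.61 and 0.65 with anti-CD3.

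Many genes of the resting state fell, most of them by less than 2-fold. The quiescence list had 26 of 36 genes lower, 4 of them at least 2-fold, and 4 higher (median -0.47). Of the 36, 32 had a row at the inferred level of 8 or above, where 35.6% of all genes were called lower. Pik3ip1, which encodes an inhibitor of PI3 kinase, stood at 0.77, 0.68 and 0.72 with PBS and at -0.75, -0.56 and -0.43 with anti-CD3 (-1.31 ± 0.09, 2.47-fold lower, adjusted p = 8.06e-08). Klf6 fell by 1.11, Tob1, an antiproliferative gene, by 1.09, Txnip, which restrains glucose uptake, by 1.0, and Lef1, a factor of naive T cells, by 0.92 on the log2 scale. Klf2, which maintains quiescence and the homing receptors, went from 0.53, 0.59 and 0.63 to -0.31, -0.18 and -0.19 (-0.81 ± 0.08). Foxo1, a factor that sustains Il7r and Klf2, fell by 0.53 on the log2 scale. Groups did not overlap for any of these. Not every member fell: the survival gene Bcl2 rose by 0.57 ± 0.10 (its 2 rows at 0.26 and 0.88), Tob2 by 0.47 and Klf10 by 0.23, and Foxp1 (-0.08) and Klf4 (-0.02) did not pass the test.

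Homing and egress genes fell in 15 of 27 cases and rose in 4, with 21 of the 27 at the inferred level of 8 or above. S1pr1, the receptor by which lymphocytes leave lymphoid organs, stood at 0.83, 0.76 and 0.79 with PBS and at -0.58, -0.41 and -0.47 with anti-CD3 (-1.28 ± 0.07, 2.43-fold lower, adjusted p = 4.03e-09). Ccr7, which guides naive cells into lymph nodes, fell from between 0.34 and 0.50 to between -0.47 and -0.30, and the integrin genes Itgae and Itga4 fell by 1.15 and 1.0 on the log2 scale. The direction was reversed for the chemokine receptor genes Ccr4, at 2.20 ± 0.12 (4.60-fold), and Ccr8, at 1.35 ± 0.13, and for the integrin genes Itgb2 (0.85) and Itgal (0.35), whose products form LFA-1. Cxcr3, an effector cell homing receptor, did not pass the test (-0.11).

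Genes of catabolism and lysosomes also fell, 22 of 35 with 4 rises and a median of -0.25. With quantile normalization 16 of them were lower. Ctsd, the protease cathepsin D, went from 0.72, 0.77 and 0.87 to -0.37, -0.42 and -0.31 (2.22-fold lower), and Lipa, the lysosomal acid lipase, from between 0.49 and 0.57 to between -0.58 and -0.49 (2.10-fold lower). Cpt1a, which admits fatty acids to mitochondria for oxidation, fell by 0.73, Ulk1, which starts autophagy, by 0.72, and the autophagosome gene Map1lc3b by 0.81 on the log2 scale. The rises included Gabarapl1 (0.75), another autophagosome gene.

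The largest fall of any gene was in a glycosylation enzyme. St8sia6 (Entrez 241230), which adds sialic acid to sialic acid on surface glycans, stood at 1.10, 1.17 and 1.33 with PBS and at -1.54, -1.24 and -0.77 with anti-CD3. The change was -2.38 ± 0.18, or 5.21-fold lower (95% confidence interval of the log2 change -2.77 to -1.99, limma adjusted p = 1.59e-07). Its stimulated arrays were scattered, but all lay below every PBS array, as the choice of the largest falls required. St8sia4 and St8sia1 of the same family fell by 1.31 and 1.10, and B4galt1, a galactosyltransferase, by 0.97 on the log2 scale. St6galnac4 moved up, from between -1.32 and -1.08 to between 0.92 and 0.93 (4.40-fold). Over the list of 23 glycosylation genes 11 fell and 4 rose. The other large falls included Cpm, a carboxypeptidase of the cell surface (3.75-fold lower), Slc6a19, a neutral amino acid transporter (3.60-fold lower), Gria3, a glutamate receptor subunit (3.19-fold lower), Rasgrp2, an activator of Rap1 in lymphocyte adhesion (3.18-fold lower), and Sesn1, a stress-induced inhibitor of mTORC1 signalling (3.01-fold lower). Cdc25b, a phosphatase of cell cycle kinases, was 2.77-fold lower.

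Genes of receptor signalling and of its brakes moved in both directions. Of 29 receptor components 8 rose and 14 fell, and 27 had a row at the inferred level of 8 or above. The share called over all 29, 75.9%, was near the 70.0% of all genes at that level, though the list also holds genes outside that set. The CD3 and CD8 genes differed: Cd3e (0.01 ± 0.05, 95% confidence interval -0.10 to 0.13) and Cd8a (0.08 ± 0.05, -0.03 to 0.18) did not pass the test. Cd8b1 fell by 0.34 and Cd3d by 0.64 on the log2 scale. Of the 8 CD8+ T cell markers 4 fell and 1 rose. Their mean went from between 0.11 and 0.16 with PBS to between -0.06 and -0.00 with anti-CD3. Zap70, the kinase recruited to the CD3 chains, rose from between -0.44 and -0.40 to between 0.48 and 0.52 (1.91-fold), and the adaptor gene Lcp2 by 0.80. Thy1, a surface glycoprotein of T cells, fell from between 0.87 and 1.0 to between -0.30 and -0.20 (2.28-fold lower), and the adaptor gene Sh2d1a was 2.14-fold lower. Among 38 brakes on signalling 19 rose and 11 fell, 78.9% in all, with 30 at the inferred level of 8 or above. Rgs16, which shortens G protein signals, stood at -2.73, -2.08 and -2.73 with PBS and at 2.37, 2.36 and 2.40 with anti-CD3 (29.7-fold, 4.89 ± 0.13). Spry1, an inhibitor of the Ras pathway, rose 14.6-fold, and Dusp4, a MAP kinase phosphatase, 4.94-fold. Cd5, an inhibitory receptor whose amount follows receptor signalling, rose 2.27-fold. Brakes that fell included Sla2 (-1.18 ± 0.07), which promotes loss of receptor chains, and Arrb1 (-1.09 ± 0.08), an arrestin. In the BCL2 and death list 14 of 28 rose and 8 fell (5 with quantile normalization). Casp4, an inflammatory caspase gene, rose most (1.69 ± 0.09), Bcl2l1, which encodes BCL-XL, rose by 0.58, and Mcl1 did not pass the test (0.04). Dapl1, a gene of resting lymphocytes, was 2.15-fold lower. Chromatin genes split into 9 of 24 higher and 11 lower, with 20 at the inferred level of 8 or above. The histone demethylase gene Kdm6b (1.73, its 2 rows at 1.45 and 2.01) and the DNA methyltransferase gene Dnmt3a (1.37) rose, and Ezh1 fell (-0.75).

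Genes inducible by interferon gamma rose although no interferon was added. Of 31 measured GTPase and antigen presentation genes 24 rose, 16 at least 2-fold, and none fell (median 1.07). Iigp1 (Entrez 60440), an immunity-related GTPase that attacks vacuoles of intracellular pathogens, stood at -4.35, -4.55 and -4.36 with PBS and at 0.02, -0.02 and 0.12 with anti-CD3, a 22.1-fold rise (4.46 ± 0.08, limma adjusted p = 2.69e-13). Gm12250 rose 11.1-fold, Gbp11 8.45-fold, Gbp5 8.22-fold and Igtp 5.81-fold, all of the same GTPase families, whose near-identical copies may share probes. Within each gene the 3 and 3 arrays were far apart. H2-K1, the only classical MHC class I heavy chain gene measured in the list, did not pass the test (-0.07). Neither did its light chain gene B2m (0.04) or the immunoproteasome gene Psmb8 (0.06). In contrast Nlrc5, the activator of class I genes, rose by 1.08 and Tap1 by 0.24. Ifng was 15.2-fold higher in the same cells. Its part in these rises was not tested.

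The gamma-activated site TTCNNNGAA, a motif of interferon gamma-responsive promoters, was present in 8 of 23 promoters (34.8%) matched to that list. That compares with 7.89% of all promoters, 10.7% for genes at least 2-fold higher and 6.45% for genes at least 2-fold lower. The site is shown in the windows of Igtp (chr11:58199436-58199555, + strand) and Gbp5 (chr3:142496684-142496803, + strand), with the motif in capitals. It begins 45 bases before the start site of Igtp and 245 before that of Gbp5. No other interferon motif was searched for, so the unmarked letters may hold one, and a match is not a measured binding site.
Igtp: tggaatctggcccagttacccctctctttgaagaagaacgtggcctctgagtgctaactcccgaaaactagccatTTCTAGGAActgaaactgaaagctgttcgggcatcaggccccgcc
Gbp5: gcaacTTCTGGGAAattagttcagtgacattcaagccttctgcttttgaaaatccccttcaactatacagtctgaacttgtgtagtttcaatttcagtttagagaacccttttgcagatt

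Type I interferon-stimulated genes moved less and less uniformly. Of 34 measured, 23 rose, 8 at least 2-fold, and 2 fell (median 0.60). The direction depended on scaling: with quantile normalization 7 were higher and 17 lower. That step forced the centred values of all 12 arrays to the same distribution, IFN-4a arrays included, which by itself moves genes at the extremes. Which direction is right was not tested. Without that step the 2 that fell were Ifit2 and Mx2 (-0.27, adjusted p = 0.0497). Mx2 was not called without PBS replicate 1, PBS replicate 2, anti-CD3 replicate 2 or anti-CD3 replicate 3. Oasl2, an oligoadenylate synthetase-like gene, went from -3.75, -3.62 and -3.48 to -1.42, -1.41 and -1.39 (4.63-fold), Zbp1, a sensor of nucleic acids, rose 3.27-fold, and Bst2, which tethers budding virus, 2.66-fold. These groups did not overlap. Ifit1 rose 1.88-fold and Isg15 1.48-fold, but both turned sign with quantile normalization (-0.21, adjusted p = 0.0759, and -0.37, adjusted p = 0.007). Ifit2 fell by 0.61 on the log2 scale. The antiviral GTPase gene Mx1 did not pass the test (-0.14 ± 0.09, adjusted p = 0.299) and was called lower with quantile normalization (-0.96). The negative values of both groups show that the arrays given IFN-4a stood higher: the change from PBS to PBS with IFN-4a was 5.19 for Oasl2, 5.16 for Ifit1 and 4.22 for Mx1. That comparison shares the PBS arrays with the anti-CD3 comparison, and the values stand side by side only.

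The anti-CD3 change was then set against the same change measured with IFN-4a in both groups, on the other 6 arrays. Across genes the changes correlated at Pearson 0.903 and Spearman 0.678. Genes are not independent replicates, and no p is given. With IFN-4a 6134 genes were called, of which 5170 were also called without it, 5134 in the same direction. A test of the difference itself, anti-CD3 change with IFN-4a minus without, called 209 genes (0.942% of those tested), with 66 differences higher and 143 lower. Of the 703 genes changed at least 2-fold by anti-CD3 alone, 78 had a called difference, with a smaller change in the presence of IFN-4a for 67 and a larger one for 11. Most of the programme gave no called difference, including Nr4a2 (-0.10, adjusted p = 0.854), Tnf (-0.08, adjusted p = 0.865) and Myc (-0.14, adjusted p = 0.745), which does not show that the changes were equal.

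**Figure D4:**
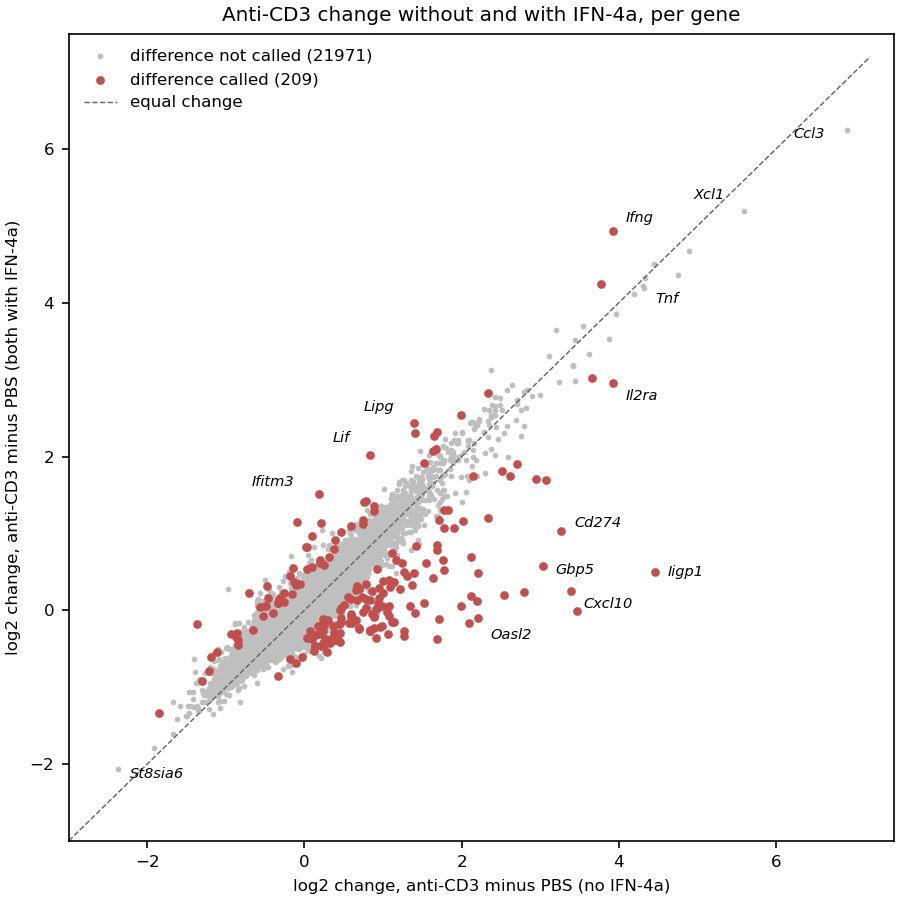
Log2 change by anti-CD3 of each gene without IFN-4a (x axis) against that with IFN-4a in both groups (y axis), with the 209 genes whose difference was called in red and a dashed line at equal change. Most large changes lie near the line, while Iigp1 (4.46 without, 0.50 with) and Gm12250 (3.47 and -0.01) lie near 0 on the y axis.

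The largest called negative differences were in Iigp1, Gm12250, Cxcl10 and Gbp10. Iigp1 rose by 4.46 without IFN-4a and by 0.50 with it (difference -3.96, adjusted p = 2.38e-10), where IFN-4a alone gave 4.32. In the interferon gamma-inducible list 19 of 31 genes had a called negative difference and none a positive one, and the list's median change was 1.07 without and 0.07 with IFN-4a. Cd274 rose by 3.27 without and 1.03 with IFN-4a (difference -2.24, adjusted p = 6.82e-08), Cxcl10 by 3.39 and 0.25 (difference -3.14, adjusted p = 1.65e-08) and Ccnd2 by 1.78 and 0.52 (difference -1.25, adjusted p = 8.88e-07). Cytokine genes were among the positive differences. Ifng rose by 3.93 without and by 4.94 with IFN-4a (difference 1.01, adjusted p = 0.00112), Lif by 0.83 and 2.02 (difference 1.19, adjusted p = 0.000504) and Il3 by 1.41 and 2.30 (difference 0.89, adjusted p = 0.00126).

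Markers of other cell types are given by list. The mean centred values of a list overlapped between the groups for B cells (-0.03 to 0.03 with PBS, -0.09 to -0.02 with anti-CD3) and for monocytes, macrophages and dendritic cells (-0.06 to -0.01 and -0.06 to 0.04). Of these 13 and 21 genes 2 passed the test in each list: Cd79b (-0.69 ± 0.08) and Bank1 (0.31) for B cells, Itgax (0.56 ± 0.07), which activated CD8+ T cells can also express, and H2-Aa (0.35) for myeloid cells. The call of Bank1 was lost without PBS replicate 2 or without anti-CD3 replicate 3 (adjusted p = 0.0504 and 0.0512). Granulocyte markers gave 1 call of 13, Elane (-0.24), and erythroid and platelet markers 1 of 7, Itga2b (-0.23). Elane was not called without PBS replicate 1, PBS replicate 3 or anti-CD3 replicate 3, and Itga2b was not called with the replicate block (adjusted p = 0.0532) or without any of PBS replicates 1 and 2 and anti-CD3 replicates 2 and 3. The NK cell list rose in mean from between -0.24 and -0.17 to between -0.01 and 0.07, with 3 of 11 higher and 2 lower (1 lower with quantile normalization or without anti-CD3 replicate 2). The genes that rose were Eomes and Nkg7 (1.59 and 0.93), which CD8+ T cells also express, and the NK receptor gene Klri2 (0.34), whose call was lost without PBS replicate 3 or without anti-CD3 replicate 2 (adjusted p = 0.0603 and 0.0689). Ncr1 (-0.03) and Klrb1c (-0.02), which mark NK cells, did not pass the test. In the CD4 and regulatory T cell list Il2ra and Cd40lg (1.04) rose, Ctla4, Gata3 and Ikzf2 fell, and Cd4 (-0.12) and Foxp3 (0.01) did not pass the test. The mean of its 9 genes went from between -0.26 and -0.24 to between 0.08 and 0.14, without overlap, with Il2ra (3.93) as its largest change. The part of other cell types in the results above was not tested.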

How the data were processed

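RNA was measured on 12 single-channel arrays in 4 labelled groups of 3. Per the labels, total RNA was extracted with an RNeasy Mini Kit and biotin-labelled with the WT Plus Kit. The deposited values were read as log2 and had been centred by the authors on each row's median over the 12 arrays (largest absolute row median 5e-07). For normalization, probe summarization and software: not given in the sources used here. Arrays give no count depth, so their number limits the precision.

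Of 33793 rows, 23521 had 1 gene symbol, 1814 several and 8458 none. Rows of 1 gene were averaged (1082 genes had several). All 22180 genes were fitted over the 12 arrays with limma 3.58.1 in R 4.3.3 (8 residual and 5.18 prior degrees of freedom), without a filter, and called where the Benjamini-Hochberg adjusted p was below 0.05. Errors are the fit's standard errors with n = 3 arrays per group. On simulated data of the anti-CD3 comparison, 100 of 100 genes changed by 1 and 79 of 100 changed by 0.5 on the log2 scale were recovered. The simulation changed few genes and drew noise independently for each array. Its rates are therefore not the power of the real comparison. Deviations of arrays with the same replicate number correlated at 0.229, 0.122 and 0.195 between PBS and anti-CD3, all over 0.1. Those with different numbers correlated at -0.176 to -0.044. The numbers were therefore taken to pair the arrays, which the labels do not state. A block was fitted over all 4 groups beside the unblocked test, although the IFN-4a arrays were not checked in this way. Calls are from the unblocked test unless a setting is named.

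Named genes were the 15 largest non-overlapping changes in each direction, the 4 largest changes and the smallest of each list, check genes, and the 8 largest differences in each direction. Further members of the lists were named after their values were seen. Members and lists (932 of 1022 entries measured, in 38 lists) were chosen with earlier results of these data known.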

Additional observations from a re-analysis of the deposited data

Results flagged for a closer look

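For 41 named genes the anti-CD3 change differed with IFN-4a present, by a test of the difference itself (limma, adjusted p under 0.05), and the values below are the change with IFN-4a minus the change without it on the log2 scale.

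Among GTPase and antigen presentation genes the difference was -3.96 for Iigp1, -3.48 for Gm12250, -2.56 for Gbp10, -2.45 for Gbp5, -2.34 for Igtp, -1.39 for Gbp11, -2.24 for the MHC class I-like gene H2-T24, -1.01 for Nlrc5 and -0.36 for Tap1. Antiviral genes gave -2.31 for Oasl2, -2.06 for Rtp4, -1.82 for Zbp1, -1.45 for Bst2 and -1.28 for Ifit1. Each of these genes rose with anti-CD3 alone. Ifitm3, an antiviral membrane protein gene, gave 1.33 in the other direction.

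Activation genes with a smaller rise in the presence of IFN-4a were Cxcl10 (-3.14), Cd274 (-2.24), Ccnd2 (-1.25), Jun (-1.04), Il2ra (-0.97), Bcl6 (-0.92), Casp4 (-0.90), Tnfsf8 (-0.87), Cd69 (-0.85), Pole2 (-0.84), Wars (-0.83), Slamf7 (-0.64), Rel (-0.53) and Rgs1 (-0.41). Larger rises were found for Lif (1.19), Lipg (1.04), Ifng (1.01), Il3 (0.89), Tfrc (0.48) and Crtam (0.45). Hspa1b (1.25) and Gzmc (0.92) did not pass the test without IFN-4a. Genes that fell with anti-CD3 alone and had a positive difference were Vmn1r20 (0.94), Thy1 (0.57), Slc6a19 (0.51) and St8sia4 (0.38).

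Rows that name several genes or none were outside the comparison of named genes. Fitted in the same way, 1320 of 10272 such rows (12.9%) passed the test, 694 higher and 626 lower with anti-CD3.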

How the results depend on the processing

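The number of genes called was 7102 with the replicate block, against 7048 without it, and 6875 were shared. Among the named genes the block ended the calls of Itga2b and Dnajb1 (adjusted p = 0.0532 and 0.0506), added Mpo and Car2, and ended the difference of Vmn1r20 (adjusted p = 0.0511). With quantile normalization of the centred values of all 12 arrays, 271 genes were at least 2-fold lower (140 without). The difference between the anti-CD3 changes was then called for 123 genes (209 without), 75 of them lower (143 without). On rows at the inferred level of 8 or above, 6315 genes were tested, and 2454 were lower, 406 differences were called and 202 were positive. Positive differences numbered 66, against 121 with array weights and 32 to 54 without single arrays: 35 without PBS replicate 2, 39 without PBS replicate 3, 32, 36 and 41 without anti-CD3 replicates 1, 2 and 3. Of 323 named genes 293 kept their side of the threshold in every setting run. Changes of sign were Lgals9 (-0.30), Ifitm3 (-0.26), Ifit1 (-0.21) and Isg15 (-0.37) with quantile normalization and Slc2a1 (-0.00) with the highest-mean row. Of 41 differences of named genes 27 were called in every setting run and 14 were lost in at least 1: Casp4, Cd69, Gbp11, Ifit1, Rel, Slamf7 and Tnfsf8 with quantile normalization alone, and Crtam, Il2ra, Rgs1, Slc6a19, St8sia4, Tap1 and Vmn1r20 without single arrays, some also in other settings. The causes were not tested. Centred values give no signal over background, so the limit that it sets is unknown.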
